A study of Homo sapiens with 3 samples.

Results

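Glycolysis and hypoxia response genes were followed on arrays of HCT116 cells in which the chromatin remodelling ATPase SMARCA4 had been knocked down. The members were 38 genes given by name, and the values are those of the non-control probes that carry these names in the array files. All 38 genes had a probe, 50 probes in all, out of 58201 non-control probes on the array and 22620 genes that were kept after a filter on dim probes. HCT116 is an established human colorectal cancer cell line, grown here in humidified air, and the labels give no low-oxygen treatment. There was 1 array, hybridised in 1 colour (Cy3), for each of SMARCA4-KD1 and SMARCA4-KD2, treated with small interfering RNA against SMARCA4 by lipid transfection, and for NC, the control cells. With 1 array per condition no difference has a replicate check and no test was made. SMARCA4-KD1 and SMARCA4-KD2 shared a slide and NC lay on another, so slide and group cannot be told apart. The comparisons of both knockdowns share the single NC array.

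Glycolysis splits glucose into pyruvate in the cytosol, and pyruvate then enters the mitochondria through pyruvate dehydrogenase or is reduced to lactate by lactate dehydrogenase. When oxygen is low, prolyl hydroxylases of the EGLN family no longer mark HIF1A for degradation, and HIF1A with its partner ARNT binds near genes for glucose uptake, glycolysis, pH control and blood vessel growth. Many cancer cells, colorectal cancer cells among them, use glycolysis heavily even in air.

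The sequence of 1 of the small interfering RNAs against SMARCA4 is shown because these RNAs define the knockdowns; the labels state neither its strand nor the knockdown to which it belongs.
SMARCA4 siRNA-1: ucgcuuugguucgcaaauc

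The sample records name SMARCA4 in the titles and in the protocol but PRMT1 in the treatment field, so both genes were read first. The SMARCA4 signal was 14026 in NC against 3960.2 with SMARCA4-KD1 and 4129 with SMARCA4-KD2, which left 26.6% and 28.8% of the NC level after scaling. PRMT1 was at 7683, 9801 and 10147 in the same order, log2 fold changes of 0.27 and 0.37. Of these genes only SMARCA4 lay below NC, as the titles have it. All signals are intensities before scaling, and all fold changes are differences in log2 signal after subtraction of each array's 75th percentile, which was an intensity of 223 in NC against 237 with SMARCA4-KD1 and 228 with SMARCA4-KD2.

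Of the 38 members, 5 were at least 1.5-fold lower than NC in both knockdowns (HK1, ALDOC, CA9, NDRG1 and ANKRD37) and 0 were at least 1.5-fold higher in both. This was 13.2% of the members, beside 8.05% lower and 6.35% higher among all 22620 genes by the same rule. The threshold of 1.5-fold is the study's own, without the p-value limit that the study set beside it. Within 1.5-fold of NC in both knockdowns lay 30 of the 38 members, and 16092 of all 22620 genes did so too. The median log2 fold change of the members was -0.17 for SMARCA4-KD1 and -0.11 for SMARCA4-KD2, while that of all genes was 0.00 and 0.02. The share rests on 5 genes, and with 1 array per condition it is a description of these arrays only. In RNA from whole cultures, fewer cells of a type and less RNA per cell cannot be told apart.

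Spike-in control RNAs gave another base for the arrays. Against 8 of them, the median of all genes was 0.30 higher than NC in SMARCA4-KD1 and 0.34 higher in SMARCA4-KD2 on the log2 scale, and the fold changes given here are to be read relative to that common shift. On the spike-in scale 12 members lay below NC in both knockdowns in place of 23, and the median of the members turned to 0.13 and 0.21. All 5 lower members stayed below NC, but HK1 (-0.63 and -0.34), ALDOC (-0.71 and -0.45) and ANKRD37 (-1.01 and -0.58) no longer passed 1.5-fold in both knockdowns. PGAM1 and PFKFB2, each by its brighter probe only, passed it upward in both. Over all genes the rule then gave 654 lower and 4341 higher, in place of 1820 and 1436. Relative to the median of all genes the members' medians were -0.17 and -0.13, a difference that a common shift cannot alter. Against all 43299 genes without the filter on dim probes it was -0.02 and 0.04. There the median of all genes is set by dim values that were raised to the lowest level well above background on each array. After scaling, this level was -3.81 on both knockdown arrays and -3.66 on NC. The unfiltered figures therefore cannot show whether the difference depends on which genes are compared. Whether the amount of spiked RNA or the cells' own RNA differed between the arrays was not tested.

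**Figure D1:**
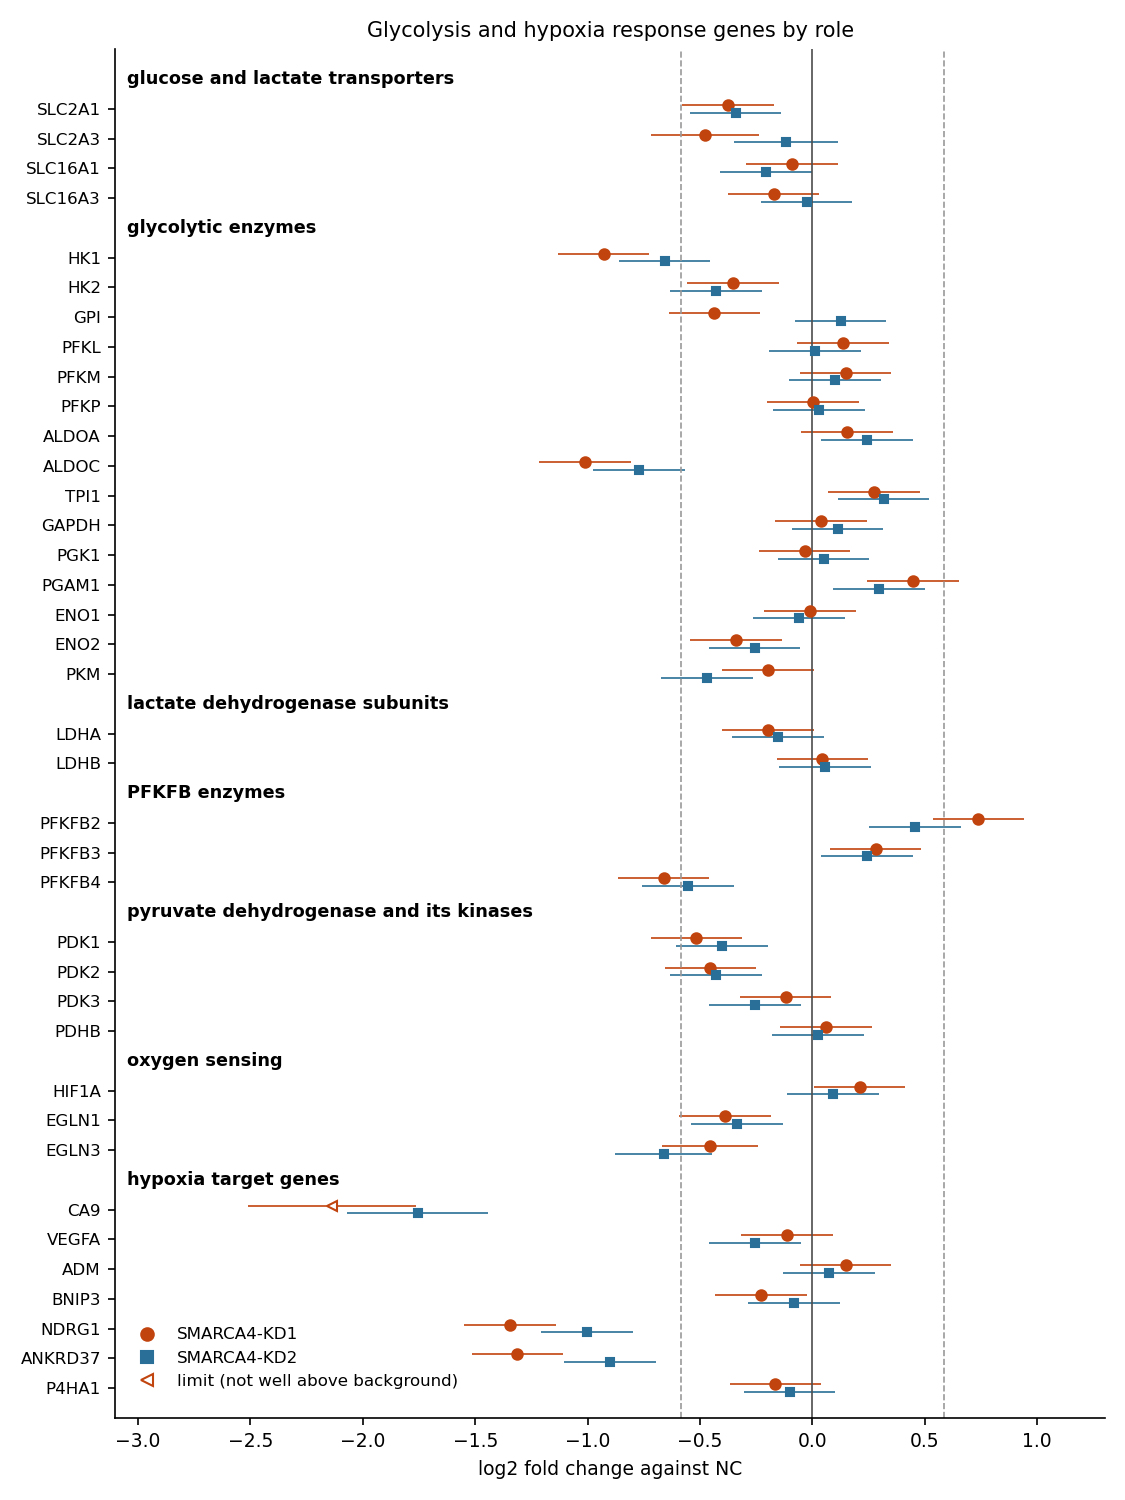
Log2 fold change against NC of each of the 38 members, by role, in SMARCA4-KD1 (circles) and SMARCA4-KD2 (squares); bars are the extraction software's error of both spots combined, dashed lines mark 1.5-fold, and the open triangle is a limit. HK1, ALDOC, CA9, NDRG1 and ANKRD37 lie left of the lower dashed line in both knockdowns, and most enzymes lie near 0.

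The error bars of that plot come from the scanner files, where the extraction software gives an error for each spot. Combined over both arrays it had a median of 0.20 on the log2 scale among the members, and it does not cover differences between cultures. The 4 members printed as repeated spots (GAPDH, PGK1, HIF1A and ADM) varied much less within an array, by an SD of 0.01 to 0.04 on the log2 scale over up to 10 spots. No member probe was saturated, and 37 of the 38 members were well above background on all 3 arrays. The exception was CA9.

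The plasma membrane transporters that bring in glucose and carry lactate out lay slightly below NC in the main analysis, all within 1.5-fold, although on the spike-in scale only SLC2A1 stayed below NC in both knockdowns. SLC2A1 (GLUT1), the main glucose transporter of many cancer cells, had a signal of 16976 in NC against 13875 with SMARCA4-KD1 and 13696 with SMARCA4-KD2. Its log2 fold changes were -0.38 and -0.34, with an error of 0.20 each. The neuronal-type glucose transporter SLC2A3 (GLUT3), a dim gene, had log2 fold changes of -0.48 and -0.12, which became -0.17 and 0.03 with normexp background correction, so its direction in SMARCA4-KD2 is not settled. The monocarboxylate carriers SLC16A1 (MCT1) and SLC16A3 (MCT4), which move lactate with a proton, lay between -0.21 and -0.03.

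Among the 15 genes of the glycolytic enzymes, 2 were at least 1.5-fold lower in both knockdowns, HK1 and ALDOC, and the other 13 stayed within 1.5-fold in both. This was 13.3% of these enzymes, beside 8.05% lower among all genes. HK1, the hexokinase isoform found in most tissues, traps glucose as glucose 6-phosphate in the first step of the pathway. Its probe, at chr10:71161158-71161217 on the plus strand of hg19, gave signals of 2847 in NC against 1587 with SMARCA4-KD1 and 1845 with SMARCA4-KD2. HK1 was thus lower on both knockdown arrays, 1.90-fold and 1.58-fold, and the second value lay only just past the threshold. HK2, the hexokinase that hypoxia and growth signals induce, had signals of 8147 in NC, 6764 with SMARCA4-KD1 and 6183 with SMARCA4-KD2. Both HK2 values were below NC, at -0.35 and -0.43 on the log2 scale, without passing 1.5-fold. A second HK2 probe was not well above background on any array.

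ALDOC, the aldolase isoform best known from brain, cleaves fructose 1,6-bisphosphate as its relative ALDOA does. Its probe lies at chr17:26900423-26900482 on the minus strand of hg19. The ALDOC signal was 3165 in NC against 1664 with SMARCA4-KD1 and 1897 with SMARCA4-KD2, 2.02-fold and 1.71-fold lower than NC. Both knockdown arrays were thus well below the NC array. ALDOA, the aldolase of muscle and most proliferating cells, had log2 fold changes of 0.15 and 0.24 and did not share this shift. The enolases showed a smaller gap of the same kind: ENO2, the neuronal form, had log2 fold changes of -0.34 and -0.26, and ENO1, the common form, -0.01 and -0.06, though on the spike-in scale ENO2 was not below NC in both knockdowns and ENO1 lay above it.

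The remaining enzymes of the pathway stayed within 1.5-fold of NC in the main analysis. GAPDH, which oxidises glyceraldehyde 3-phosphate and is the gene to which the study's RT-PCR was normalised, had signals of 110161 in NC against 119903 with SMARCA4-KD1 and 121717 with SMARCA4-KD2. Its log2 fold changes were 0.04 and 0.11, and on the spike-in scale 0.34 and 0.43. With the percentile taken over the probes that all arrays measured well above background, the value for SMARCA4-KD1 turned to -0.02, so GAPDH has no settled direction there. Among 13 reference genes, the log2 fold changes of the brightest probes ran from -0.20 (GUSB) to 0.29 (HPRT1) in SMARCA4-KD1 and from -0.27 (GUSB) to 0.31 (RPL13A) in SMARCA4-KD2, and GAPDH lay inside both ranges. Some dimmer probes of these genes lay further out, such as a TUBB probe at -0.70 and -0.62 and an ACTB probe at -0.79 in SMARCA4-KD2.

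PGK1, which makes the first ATP of the pathway's pay-off phase, had signals of 51569.6 in NC against 53412 with SMARCA4-KD1 and 54562 with SMARCA4-KD2, and log2 fold changes of -0.04 and 0.05. PKM, the pyruvate kinase of most tissues and tumours, had signals of 28539 in NC, 26438 with SMARCA4-KD1 and 21068 with SMARCA4-KD2. PKM was closer to NC in SMARCA4-KD1 (-0.20) than in SMARCA4-KD2 (-0.47). The phosphofructokinase genes PFKL, PFKM and PFKP, which commit sugar to the pathway, had log2 fold changes from 0.00 to 0.15. The triose phosphate isomerase gene TPI1 had 0.27 and 0.32, and the phosphoglycerate mutase gene PGAM1 had 0.45 and 0.30. GPI, which turns glucose 6-phosphate into fructose 6-phosphate, differed in sign, with -0.44 in SMARCA4-KD1 and 0.12 in SMARCA4-KD2.

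Lactate dehydrogenase is a tetramer of the subunits LDHA, which hypoxia induces in many cells, and LDHB. LDHA had signals of 79500.3 in NC against 73537 with SMARCA4-KD1 and 73176 with SMARCA4-KD2, log2 fold changes of -0.20 and -0.15. These values lay within the extraction error. A second probe named LDHA gave -0.07 and -0.16, but the array file lists it on chromosome 9 and the brighter probe on chromosome 11, and the brighter probe stood for the gene. LDHB had log2 fold changes of 0.04 and 0.06.

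**Figure D2:**
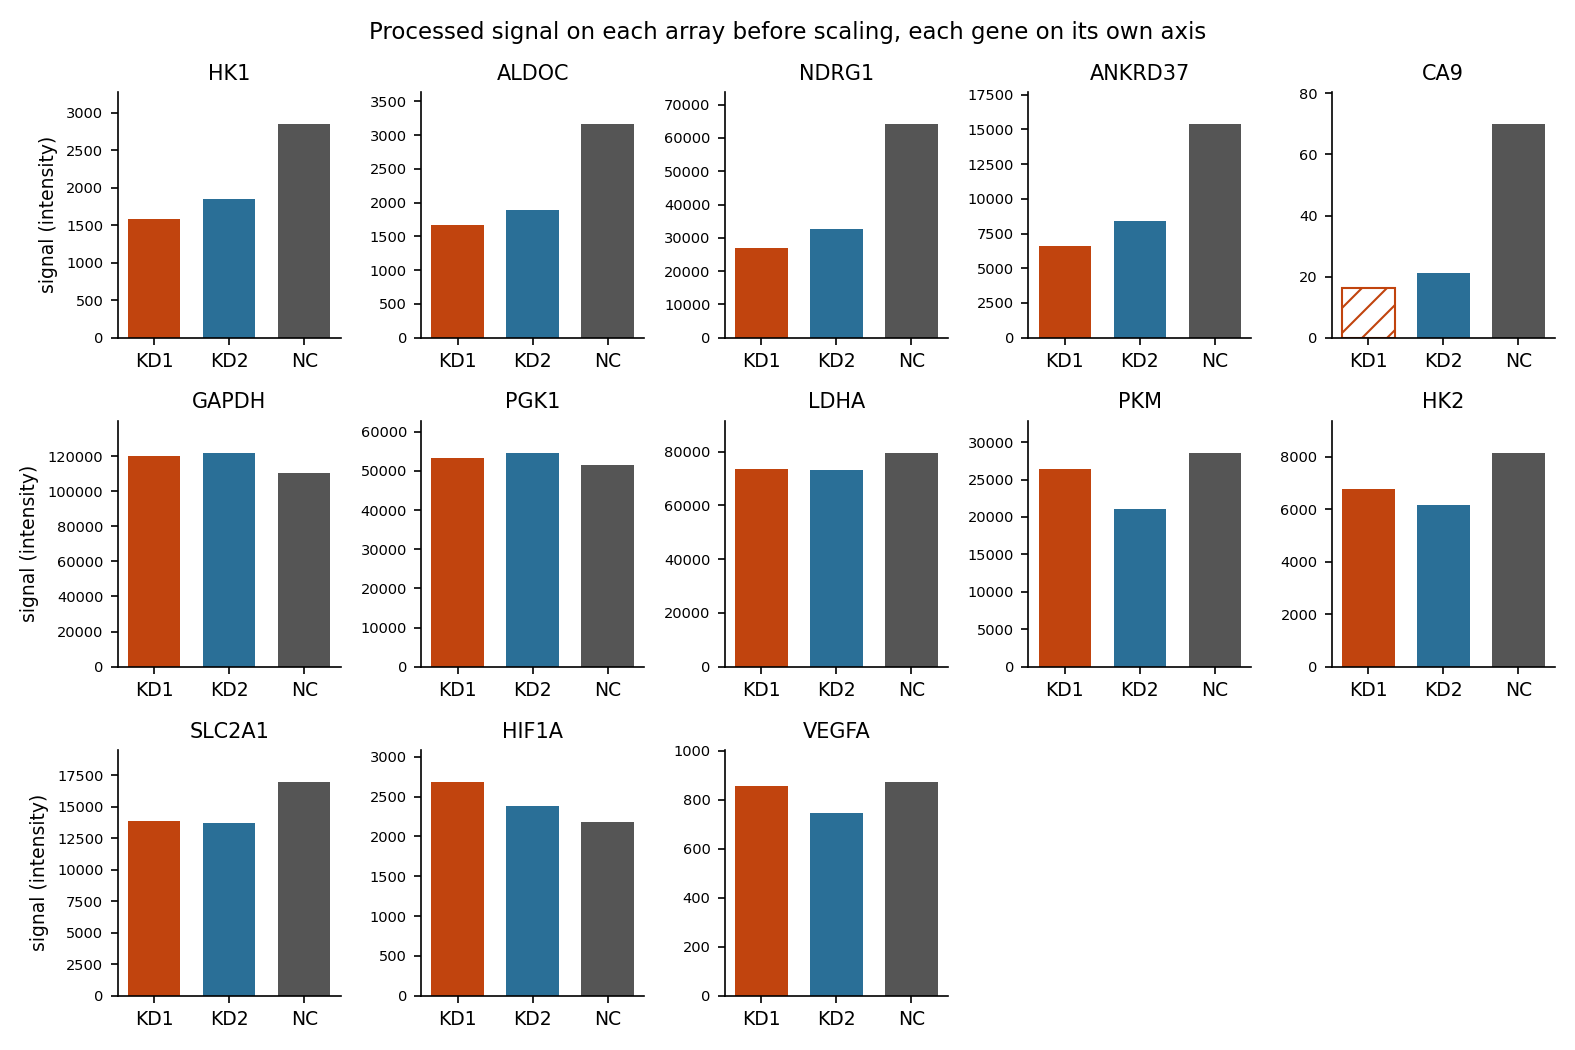
Processed signal (intensity, before scaling) of 13 members on the arrays of SMARCA4-KD1, SMARCA4-KD2 and NC, each gene on its own axis from 0; the hatched bar is not well above background. In the top row NC stands above both knockdowns, while GAPDH, PGK1 and LDHA differ little between arrays.

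The PFKFB enzymes set the level of fructose 2,6-bisphosphate, the strongest activator of phosphofructokinase. They did not move together. PFKFB4, a hypoxia-induced form, had signals of 2406 in NC against 1614 with SMARCA4-KD1 and 1678 with SMARCA4-KD2. The change was 1.58-fold downward in SMARCA4-KD1 and 1.47-fold in SMARCA4-KD2, just short of the threshold. PFKFB3, the form with the highest kinase activity, lay above NC, with log2 fold changes of 0.28 and 0.24.

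PFKFB2, first described in heart, depended on the probe. The brighter probe, at chr1:207251103-207251162 of hg19, had signals of 1663, 2944 and 2334 in NC, SMARCA4-KD1 and SMARCA4-KD2, and log2 fold changes of 0.74 and 0.46. The dimmer probe, at chr1:207253693-207253752, had signals of 171, 158 and 146 in that order, and log2 fold changes of -0.20 and -0.26. No direction is therefore given for PFKFB2. It was also the single member at least 1.5-fold higher in SMARCA4-KD1, where 11.2% of all genes were, and 0 members were that much higher in SMARCA4-KD2, where 10.1% of all genes were.

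In all, 11 members had a pair of probes well above background. PFKFB2 was the only one whose probes differed by over 1.5-fold in fold change. The probes differed in sign for 5 members, and for the 4 besides PFKFB2 all values were small. They were 0.04 and -0.01 for LDHB and 0.00 and -0.06 for PFKP in SMARCA4-KD1, with 0.03 and -0.08 for PFKP in SMARCA4-KD2. For PDK3 the probes gave -0.25 and 0.02 in SMARCA4-KD2. The VEGFA probes gave -0.11 and 0.15 in SMARCA4-KD1. Both HIF1A probes, both PFKFB3 probes and both PGAM1 probes lay above NC in both knockdowns.

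**Figure D3:**
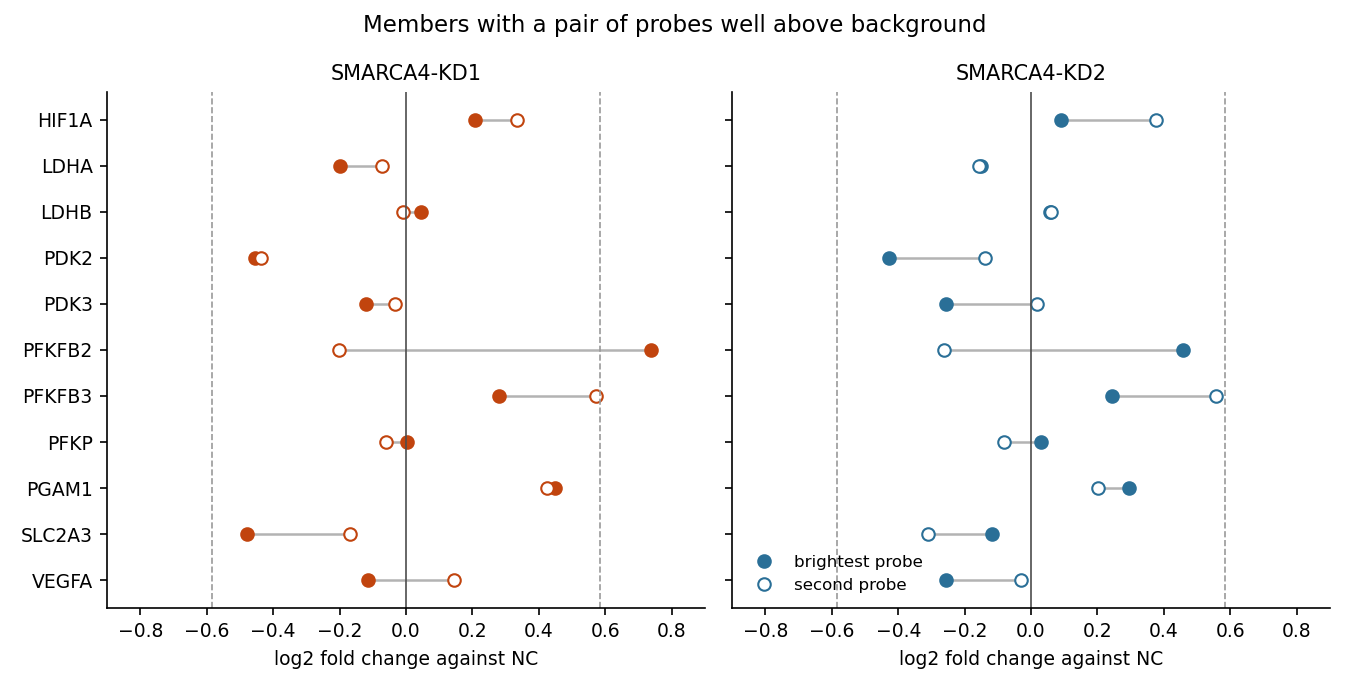
Log2 fold change against NC of the brightest probe (filled) and the second probe (open) of the 11 members with a pair of probes well above background, in SMARCA4-KD1 (left) and SMARCA4-KD2 (right); dashed lines mark 1.5-fold. The probes of PFKFB2 lie on opposite sides of 0 in both knockdowns, 0.74 and 0.46 for the brightest probe and -0.20 and -0.26 for the second.

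The pyruvate dehydrogenase kinases switch off entry of pyruvate into the mitochondria, and PDK1 is a HIF1A target. PDK1 had log2 fold changes of -0.52 and -0.40, PDK2 -0.45 and -0.43, and PDK3 -0.12 and -0.25. All of these were below NC and within 1.5-fold, but PDK3 lay above NC on the spike-in scale. PDHB, a subunit of the enzyme that they inhibit, lay at 0.06 and 0.02.

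In the oxygen sensing group, the transcription factor gene HIF1A had signals of 2187 in NC against 2683 with SMARCA4-KD1 and 2381 with SMARCA4-KD2, log2 fold changes of 0.21 and 0.09. HIF1A is mainly regulated through its protein's stability, which arrays do not measure. EGLN1 (PHD2), the main HIF1A prolyl hydroxylase in air, had -0.39 and -0.34. EGLN3 (PHD3), itself induced by hypoxia, had signals of 128 in NC, 99.0 with SMARCA4-KD1 and 82.7 with SMARCA4-KD2, and passed 1.5-fold only in SMARCA4-KD2 (1.58-fold lower, against 1.37-fold). That call did not hold under all alternatives, since its log2 fold change there went from -0.66 to -0.39 with normexp and to -0.35 on the spike-in scale. Counted for each knockdown by itself, 6 members were at least 1.5-fold lower in SMARCA4-KD1, beside 12.3% of all genes, and 6 in SMARCA4-KD2, beside 9.77% of all genes.

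Of the 7 hypoxia target genes among the members, 3 were at least 1.5-fold lower in both knockdowns (42.9%, beside 8.05% of all genes) and 4 stayed within 1.5-fold. NDRG1, a gene long used as a readout of hypoxia and linked to growth arrest and differentiation, had a signal of 64172 in NC against 26827 with SMARCA4-KD1 and 32742 with SMARCA4-KD2. After scaling, 39.4% and 49.9% of the NC level was left.

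ANKRD37, a small ankyrin repeat gene induced by HIF1A, had signals of 15382 in NC against 6575 with SMARCA4-KD1 and 8433 with SMARCA4-KD2, 2.48-fold and 1.86-fold lower than NC. Both knockdown signals were thus far below that of NC. CA9, a membrane carbonic anhydrase that helps hypoxic cells export acid, was dim on every array, at 70.0 in NC against 16.4 with SMARCA4-KD1 and 21.2 with SMARCA4-KD2. In SMARCA4-KD1 it was not well above background, so it was at least 4.40-fold lower there, taken against the lowest signal well above background on that array (16.9). In SMARCA4-KD2 it was 3.38-fold lower. With normexp background correction, which lifts dim signals, its log2 fold changes shrank from -2.14 and -1.75 to -0.77 and -0.69, still past 1.5-fold.

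The other hypoxia target genes among the members lay near NC. VEGFA, the main growth factor for blood vessels, had signals of 872 in NC against 855 with SMARCA4-KD1 and 746 with SMARCA4-KD2, log2 fold changes of -0.11 and -0.26. ADM, the gene of the vasodilator adrenomedullin, had 0.15 and 0.08. BNIP3, which acts in mitophagy, had -0.23 and -0.08, and P4HA1, a collagen prolyl hydroxylase subunit, -0.16 and -0.10. Well-known hypoxia targets were thus found both among the lowest members and among those close to NC.

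The knockdown arrays can be set against each other without the NC array, and they lay on the same slide. By the values used here none of the 38 members differed by 1.5-fold between them (0 of 38), while 6.60% of all genes did. For CA9, not well above background in SMARCA4-KD1, the gap of -0.38 is only a limit. Whether CA9 differed by 1.5-fold is therefore not known. Among the members well above background on both knockdown arrays, the widest gap was that of GPI, -0.56 for SMARCA4-KD1 minus SMARCA4-KD2. Each of the 5 lower members had its lower value in SMARCA4-KD1, with gaps of -0.27 for HK1, -0.24 for ALDOC, -0.34 for NDRG1 and -0.41 for ANKRD37, and a limit for CA9. Over the whole list 60.5% of the members were lower in SMARCA4-KD1 than in SMARCA4-KD2, beside 53.3% of all genes. SMARCA4 itself differed by -0.11.

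Other genes of these pathways were read from lists written by hand with earlier results of these data known, so their shares are descriptions only. The lists held 103 genes in all, of which 89 were well above background on at least 1 array. Of these, 15 (16.9%) were at least 1.5-fold lower in both knockdowns and 4 (4.49%) at least 1.5-fold higher, beside the 8.05% and 6.35% of all genes. The largest share of lower genes came from the 35 other hypoxia target genes. Of 32 measured, 9 (28.1%) were lower and 1 was higher, with median log2 fold changes of -0.51 and -0.34. The count of lower genes among them was 4 with normexp background correction and 3 on the spike-in scale, where the shares of all genes also fell, to 3.80% and 2.89%. It was 10 with quantile normalization and 11 with the percentile of the probes that every array measured well above background. There the shares of all genes were 8.59% and 9.27%. Scaling to GAPDH raised both the count and the share further, the latter to 10.1%. LOX, RORA and NDUFA4L2 were not well above background on any array.

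The lowest of these targets was BHLHE41, a circadian and hypoxia-responsive repressor (-1.65 and -1.47). The collagen-modifying enzymes PLOD2 (-1.09 and -1.02) and LOXL2 (-1.34 and -0.99) came next. INSIG2, which restrains sterol synthesis, had -0.91 and -0.80. ZNF395 had -0.87 and -0.68, and the histone demethylase gene KDM3A -0.86 and -0.68. SLC6A8, the creatine transporter gene, went the other way, at 1.01 and 0.86, and its second probe at 1.28 and 1.06.

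**Figure D4:**
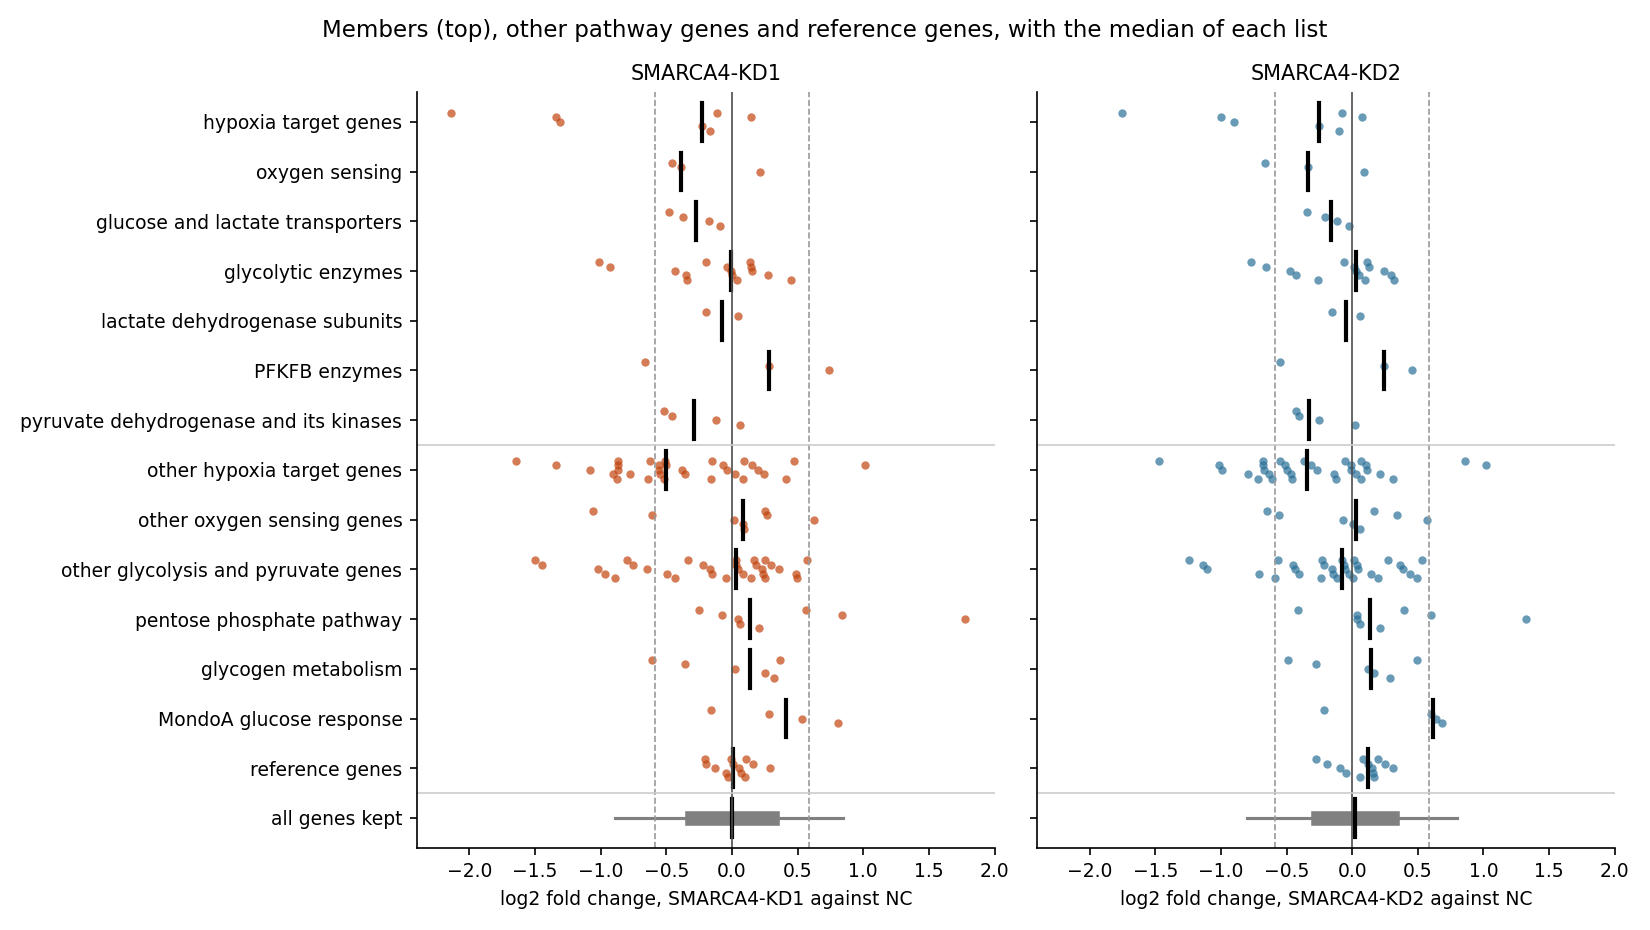
Log2 fold change against NC of each gene (points) in the member groups (top block), the other pathway lists and the reference genes (second block), with the median of each list as a black bar, in SMARCA4-KD1 (left) and SMARCA4-KD2 (right). The bottom row gives the median, the middle 50% (thick) and the range from the 5th to the 95th percentile (thin) of all 22620 genes, dashed lines mark 1.5-fold, and the other hypoxia target genes have medians of -0.51 and -0.34.

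Of 31 measured among 40 other genes of glycolysis and pyruvate metabolism, 5 (16.1%) passed 1.5-fold downward and 0 upward in both knockdowns, beside 8.05% and 6.35% of all genes, with medians of 0.03 and -0.07. The 5 include PDHA1 by its brighter probe. PDK4, the pyruvate dehydrogenase kinase of fasting, had signals of 223 in NC against 83.4 with SMARCA4-KD1 and 96.2 with SMARCA4-KD2, which are log2 fold changes of -1.50 and -1.24. The hexokinase-related gene HKDC1 had -1.02 and -0.71, and the transporter SLC2A12 had -0.97 and -1.11. PDHA1, the partner subunit of PDHB, depended on the probe, with -1.45 and -1.14 for the brighter probe (signals of 17331 in NC, 6744 with SMARCA4-KD1 and 8058 with SMARCA4-KD2) and 1.03 and 0.68 for a dim probe (30.8, 66.6 and 50.4 in the same order). No direction is therefore given for PDHA1.

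The pentose phosphate pathway, which branches off from glucose 6-phosphate, had 0 of 8 genes lower and 2 higher in both knockdowns. The shares of all genes, 8.05% lower and 6.35% higher, stand beside this and the next counts, which rest on few genes. RPIA, which makes ribose 5-phosphate, had 0.84 and 0.60, and the dim transketolase-like gene TKTL1 had 1.78 and 1.32. Glycogen metabolism had 0 of 6 measured genes past 1.5-fold in both knockdowns. Of the 4 measured genes of the MondoA glucose response, 0 were lower and 1 was higher in both knockdowns. This was MLXIP, which encodes MondoA itself and was higher by its brighter probe (0.81 and 0.68) and lower by its second (-0.37 and -0.38). Its glucose-induced target TXNIP was not well above background on any array. Of 8 other oxygen sensing genes, 1 was lower in both knockdowns, ARNT2 (-1.06 and -0.65), while the HIF partner ARNT had 0.25 and 0.34 and VHL 0.01 and 0.00.

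Markers of the cell type were read on the same arrays. Of 7 markers of colon epithelial cells, 6 were well above background on all arrays (EPCAM, KRT8, KRT18, KRT19, CDH1 and CDX2), with log2 fold changes from -0.23 to 0.30 for the brightest probes, and VIL1 was not. A dimmer KRT8 probe had 0.78 and 0.53. Of 7 markers of blood, stromal, endothelial and liver cells, CD3E, COL1A2, PECAM1 and ALB were not well above background on any array. COL1A1 had signals of 348 in NC, 477 with SMARCA4-KD1 and 387 with SMARCA4-KD2, and PTPRC and VWF were dim, at no more than 52.0 on any array.

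The HIF dimer is known to read the short core motifs ACGTG and GCGTG, and MYC and MondoA dimers read CACGTG, which contains ACGTG on both strands. These letters were counted on either strand in RefSeq promoter windows of 300 bases, 250 before and 50 after each start site (GRCh38.p14), in which 33 of the 38 members had an entry. NDRG1, SLC16A1, VEGFA, PFKFB2 and SLC2A3 had none. At least 1 window held ACGTG in 22 of the 33 members (66.7%), beside 24.9% of all 27305 genes in the table. For GCGTG the shares were 63.6% and 40.6%, and for CACGTG 30.3% and 8.77%. Since some genes have several start sites, the shares were also taken over genes with 1 window: 57.1% of 21 members and 21.3% of 22114 genes held ACGTG.

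Within the members the motif occurred both in lower genes and in the rest. ACGTG was found in 3 of the 4 lower members with an entry (ALDOC, ANKRD37 and CA9) and in 19 of the 29 remaining members. HK1 had 7 windows, of which none held ACGTG, though GCGTG was found among them. With either form counted, all 4 lower members with an entry held a match. So did 27 of the 29 remaining members, beside 52.4% of all genes in the table. Members close to NC that held ACGTG include GAPDH, PGK1, LDHA and PDHB. A match is only a match of letters, and binding was not measured here. The windows of CA9, ANKRD37 and ALDOC, which were lower in both knockdowns, are printed with that of PGK1, which was not, so that the motif can be seen in both; capitals mark ACGTG or, on the other strand, CACGT, and each runs 5′ to 3′ on the strand of the gene.
CA9, chr9:35673678-35673977, plus strand: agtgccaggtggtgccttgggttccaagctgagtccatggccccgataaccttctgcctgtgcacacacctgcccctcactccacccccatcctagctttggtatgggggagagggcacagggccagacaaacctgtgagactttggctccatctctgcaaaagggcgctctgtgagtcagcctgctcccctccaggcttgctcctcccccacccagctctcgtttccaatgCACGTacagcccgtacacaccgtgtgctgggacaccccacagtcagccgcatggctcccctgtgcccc
ANKRD37, chr4:185396591-185396890, plus strand: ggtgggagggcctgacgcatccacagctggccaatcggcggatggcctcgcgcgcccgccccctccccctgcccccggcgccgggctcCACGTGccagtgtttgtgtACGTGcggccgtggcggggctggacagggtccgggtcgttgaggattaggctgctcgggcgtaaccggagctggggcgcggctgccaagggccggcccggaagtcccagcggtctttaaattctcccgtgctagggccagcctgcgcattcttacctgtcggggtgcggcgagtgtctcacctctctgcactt
ALDOC, chr17:28576846-28577145, minus strand: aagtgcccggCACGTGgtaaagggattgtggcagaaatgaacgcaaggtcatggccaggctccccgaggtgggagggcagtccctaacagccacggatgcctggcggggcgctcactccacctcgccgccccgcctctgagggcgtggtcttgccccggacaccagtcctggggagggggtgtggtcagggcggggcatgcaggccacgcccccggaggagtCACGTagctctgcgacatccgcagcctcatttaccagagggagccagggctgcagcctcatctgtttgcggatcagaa
PGK1, chrX:78103998-78104297, plus strand: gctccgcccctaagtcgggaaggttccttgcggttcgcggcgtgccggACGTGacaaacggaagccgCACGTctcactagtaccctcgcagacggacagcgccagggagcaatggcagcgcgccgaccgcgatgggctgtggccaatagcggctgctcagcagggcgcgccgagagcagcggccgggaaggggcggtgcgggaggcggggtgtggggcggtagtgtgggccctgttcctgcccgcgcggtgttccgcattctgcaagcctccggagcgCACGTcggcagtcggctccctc

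Read by strand, CA9 held 1 match to ACGTG, 18 bases before the start site. ANKRD37 held 3, of which a pair lies within a single CACGTG, and ALDOC also held 3, again with a pair in a single CACGTG. PGK1 held 3 separate matches, of which 1 lies after the start site, and its signal differed little between the arrays.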

How the data were processed

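The conditions SMARCA4-KD1, SMARCA4-KD2 and NC had 1 Agilent SurePrint G3 Human array (Gene Expression v3) each. The authors deposited the intensity of each spot, extracted according to the submitters' processing notes with Agilent Feature Extraction 10.7.1.1, background-subtracted and detrended, without normalization between arrays. They also deposited a series-level table of intensity on a linear scale without centring, with medians of 12.8, 13.1 and 12.2 in that order, equal to the scanner values (within 0.01 on the log2 scale) but for 1 EGFR probe. The deposited files also hold 0 or 1 flags and other extraction columns, used as given.

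Control and outlier spots were left out, repeated spots were averaged as log2, and each array's 75th percentile was subtracted. Values not well above background were raised to the lowest level well above it on the same array. From 26619 to 27536 probes were well above background on an array. A probe had to reach this on 1 array or more, and the brightest such probe stood for its gene. Gene names and hg19 positions are those of the array files; C12orf5 (TIGAR) and ERO1L (ERO1A) keep the older names. Fold changes were read at 1.5-fold without a test, whose precision the number of arrays limits. The exon of each probe was not derived here.

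All members were accounted for. Signals were printed for members past 1.5-fold in both knockdowns and for GAPDH, HIF1A, SLC2A1, HK2, LDHA, PGK1, PKM, VEGFA, CA9 and NDRG1. Log2 fold changes were given for probes where those of a member differed in sign or by over 1.5-fold, and for other pathway genes past 1.5-fold in both knockdowns, at most 12 per direction by the smaller change. A gene among these and an oligonucleotide sequence are not reported here. Signals of PFKFB4, EGLN3, PDK4, PFKFB2 and PDHA1 and the other values named beside them were chosen after they were seen. Members and lists were chosen with earlier results of these data known. Alternatives were quantile normalization, normexp (offset 50), the percentile of the probes that every array measured well above background, a filter asking this of every array, no filter, no floor, the mean of a gene's probes, the series-level table and a 2-fold threshold; scaling to GAPDH and to spike-in controls was chosen after seeing the data. The steps were tested on simulated data. Python 3.11.15, numpy 2.4.6, pandas 2.3.3, matplotlib 3.10.9, R 4.3.3 and limma 3.58.1 (for normexp) were used.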

Additional observations from a re-analysis of the deposited data

How the results depend on the processing

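The direction of HK1, ALDOC, CA9, NDRG1 and ANKRD37 held under the 5 alternatives that rescale or background-correct every value: quantile normalization, normexp, the other percentile, GAPDH and spike-in controls. The 2-fold threshold and the filters cannot turn a direction, and CA9 has no value with the filter on all arrays. Of the 11 alternatives, NDRG1 passed the threshold in both knockdowns under all 11, CA9 under 10, and the other 3 under 9. With a 2-fold threshold 2 members were lower in both knockdowns (CA9 and NDRG1), and 5 other pathway genes were past it, 4 lower and 1 higher, including 2 lower hypoxia targets, beside 2.11% lower and 1.46% higher among all genes. With normexp 10 other pathway genes were past 1.5-fold in place of 19, 8 lower and 2 higher, including 4 lower hypoxia targets in place of 9, and all genes gave 3.80% lower and 3.99% higher in place of 8.05% and 6.35%; dim probes shrink most under it by construction. Scaled to GAPDH, chosen after seeing the data, the members' median in SMARCA4-KD2 was -0.22 in place of -0.11. Under it 2 other pathway genes were higher in place of 4, and ANKZF1, ERO1L, RAB20 and TMEM45A joined the lower hypoxia targets. All genes then gave 10.1% lower and 4.50% higher in place of 8.05% and 6.35%. PFKFB4 joined the lower members under this scaling, under quantile normalization and with the percentile of the probes that every array measured well above background. Scaled to spike-in controls, also chosen after seeing the data, 2 members were lower and 2 higher in both knockdowns. The higher members were PGAM1 and PFKFB2, each by its brighter probe only, and the members' medians were 0.13 and 0.21. On this scale 6 other pathway genes were lower and 15 higher, with 3 lower hypoxia targets, beside 2.89% lower and 19.2% higher among all genes. The cause was not tested. Without a filter the median of all genes was -0.15 in both knockdowns, and the members' medians lay at -0.02 and 0.04 relative to it, in place of -0.17 and -0.13. That -0.15 is the gap between the floors of the arrays, to which dim values were raised, and not a measured change of the genes. NDRG1 lay at -0.96 in SMARCA4-KD2 with normexp, short of 2-fold. In the series-level table the EGFR probe sets a lower floor, which left the count of lower members at 5. No member well above background on both knockdown arrays differed by 1.5-fold between the knockdowns under any alternative, and for CA9 this is not known. No paired analysis was possible because each group has 1 array and no result comes from a test. Signal over background limits CA9, EGLN3 and SLC2A3.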
